A study of Homo sapiens and Canis lupus familiaris with 27 samples.

Results

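LNCaP cells, a human prostate carcinoma cell line from a lymph node metastasis, were compared after 12 h of exposure to PDA-66 with their DMSO control samples. The comparison comprised 6 of the 27 samples in the series: every LNCaP sample labelled with PDA-66 and 12 h (n = 3) and every LNCaP DMSO sample (n = 3). The PDA-66 samples received 15 μM of this indolylmaleimide, dissolved in DMSO. The control samples received 0.15% DMSO and carry the label 24 h only, so that the effect of PDA-66 and a difference in time in culture cannot be told apart. The 3 LNCaP samples with 24 h of PDA-66 entered the fit for the estimate of the spread and share the same controls. Poly(A)-enriched RNA was sequenced, and the authors deposited the reads counted on each gene. The other samples, of the cell lines PC-3 and CT1258, were not analysed here. LNCaP stands for a single line, so that p-values measure the spread between its replicates, which the study's methods describe as independent biological ones.

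PDA-66 is known to depolymerise microtubules, the polymers of α- and β-tubulin from which the mitotic spindle is built. Cells without a functional spindle are held in mitosis by the spindle assembly checkpoint. In dividing cells, E2F factors drive genes needed for DNA replication, and the complex of B-MYB and FOXM1 drives genes needed for mitosis.

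Total counts were between 11923105 and 13858607 in the control samples and between 13673905 and 14741883 after 12 h. PDA-66 12 h replicate 2 lay apart from its group. Its mean distance to the other 12 h samples was 2.19 on the log2 scale over the 500 most different genes of each pair, while replicates 1 and 3 lay 0.919 apart. In this library the level of a gene followed its GC content, the share of the bases G and C in its exons. Its median log2 deviation from the controls ran from -0.75 in the GC decile with the lowest content to 0.95 in the decile with the highest. The other 5 libraries stayed between -0.24 and 0.20 in these deciles. DMSO replicate 1 lay between the groups for many genes, 1.47 from the 24 h samples and 1.53 from the other controls. Results are therefore given with all libraries and with PDA-66 12 h replicate 2 left out. The luminal prostate markers fitted the label in all 6 libraries. FOLH1, the prostate-specific membrane antigen, had at least 919 CPM, which are counts scaled to a common library size, in every library. TP63 of basal epithelium and KDR of endothelium were at 0 in all 6 libraries, while other members of both lists had counts. VWF of endothelium had 22.9, 40.2 and 27.4 CPM in the controls, and KRT14 of basal epithelium had 1.48, 2.06 and 1.16 CPM. NGFR of basal epithelium had 6.75 CPM in DMSO replicate 2 and at most 0.540 CPM in the other libraries compared.

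**Figure D1:**
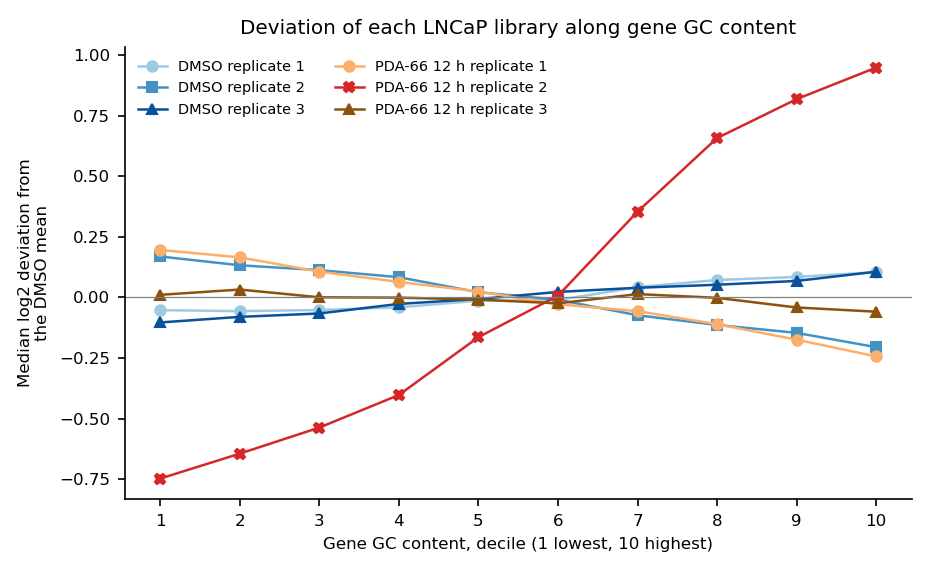
Median log2 deviation of each of the 6 libraries from the mean of the 3 DMSO libraries (vertical axis) in 10 classes of gene GC content (horizontal axis), with 1 line per library. PDA-66 12 h replicate 2 runs from -0.75 to 0.95, and the other libraries stay near 0.

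Of 23708 genes, 13156 passed the filter on low counts and were tested with edgeR (quasi-likelihood F test), p-values being adjusted by the Benjamini-Hochberg method. At an adjusted p under 0.05, 1202 genes (9.14%) differed, of which 594 (4.52%) were higher and 608 (4.62%) lower after 12 h. A gene past this threshold is called below. In this fit the stricter threshold of the study, 0.001, was passed by 1 gene (0.00760%). The study itself reported more genes for this comparison at that threshold, and its own edgeR analysis was not repeated here. Without PDA-66 12 h replicate 2, 3881 of 13335 genes (29.1%) were called, 1881 higher (14.1%) and 2000 lower (15.0%), and 261 (1.96%) passed 0.001. All 1202 genes were also called without that library, in the same direction, and 2632 further genes were called among those tested in both fits. The biological coefficient of variation fell from 0.240 to 0.121 when it was left out. Other libraries decided the count as well: 299 genes were called without DMSO replicate 2, 246 without DMSO replicate 3 and 595 without PDA-66 12 h replicate 3. Without DMSO replicate 1, 1676 genes were called. Counts in gene lists with 1 library left out are to be read beside these totals. Leaving out replicate 1, 2 or 3 of the 24 h group, which only informs the spread, gave 603, 625 and 563 genes. The same test on only the 6 samples compared, without the 24 h group, called 3 genes. On these 6 samples, edgeR's exact test called 969 of 13015 genes. For 3698 genes (28.1%), the 3 libraries after 12 h did not overlap with the 3 controls.

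The left-out library was then set against the genes called without it, as a description, since the controls are shared. Of 1877 such genes that were higher, 1126 (60.0%) lay above all controls in replicate 2 as well, and 391 (20.8%) lay below them. Of 1957 lower genes, 1161 (59.3%) lay below all controls and 483 (24.7%) above. Over all genes tested, 50.3% of those with a higher and 51.7% of those with a lower fold change lay beyond the controls on the same side. The share moved with GC content. Among higher genes it was 36.0% at low, 69.6% at middle and 97.2% at high GC content, and among lower genes 96.1%, 75.5% and 31.9%.

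**Figure D2:**
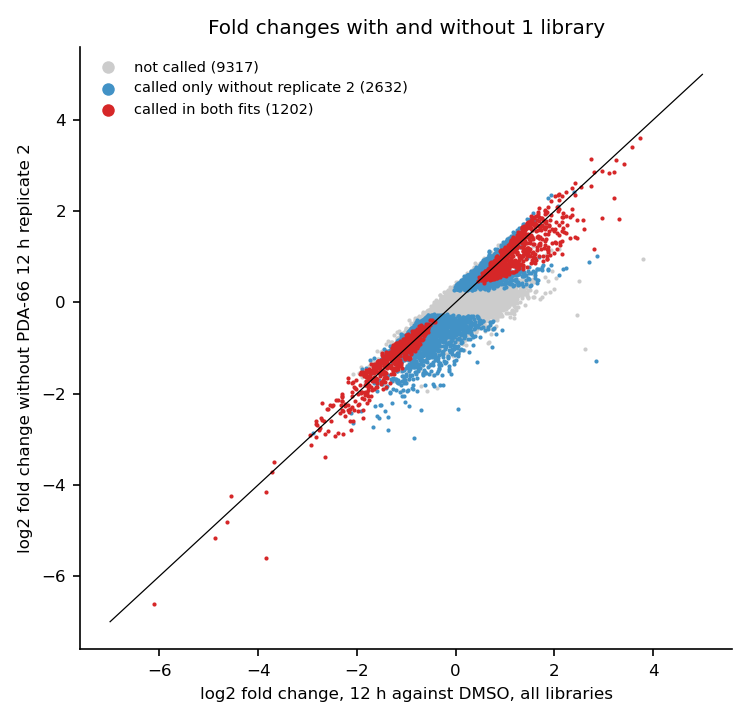
Log2 fold change after 12 h against DMSO with all libraries (horizontal axis) and without PDA-66 12 h replicate 2 (vertical axis), with 1 point per gene tested in both fits and a line where both are equal. The 1202 genes called in both fits keep their sign, and 2632 genes are called only without replicate 2.

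The gene with the smallest adjusted p was DIO3 (chromosome 14, 102026476 to 102029789, GRCh37), the deiodinase that inactivates thyroid hormone. It had 27.0, 28.1 and 49.3 CPM in the controls and 0.332, 0.823 and 0.359 CPM after 12 h. The groups were far apart, and the low library of the controls still lay above every PDA-66 library. The log2 fold change was -6.12 ± 0.39 (SE), with an adjusted p of 0.000385, and -6.62 without replicate 2. DIO3OS, its antisense neighbour, was below the filter with at most 0.309 CPM in any of the 6 libraries.

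Among the genes that fell most were secreted and membrane proteins. S100P, a calcium-binding protein, went from 6.49, 20.3 and 50.02 CPM to 0.797, 1.32 and 1.00 CPM, a log2 fold change of -4.62. ANGPT2, a ligand of the vascular receptor TIE2, went from 56.3, 138 and 174 CPM to 6.11, 2.63 and 6.89 CPM (log2 fold change -4.55). For both genes DMSO replicate 1 was the lowest control, and no library overlapped between the groups, which the naming rule required. The same held for CD55, which protects cells from complement, with 23.2 CPM in DMSO replicate 1 against 105 and 106 CPM in the other controls and 13.3, 7.00 and 12.3 CPM after 12 h (log2 fold change -2.84). Other genes of this end were TSC22D3, a glucocorticoid-induced leucine zipper protein (-2.93), the cadherin CDH26 (-2.70), DDIT3 (-2.64), the cytokine TNFSF15 (-2.60) and TOX3 (-2.54).

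At the other end, ID1, an inhibitor of basic helix-loop-helix factors, rose from 41.3, 14.6 and 17.4 CPM to 156, 209 and 206 CPM (log2 fold change 2.96 ± 0.37 SE). Its relative ID3 had 25.4, 11.03 and 12.6 CPM in the controls and 70.6, 293 and 90.5 CPM after 12 h. Replicate 2 was far above the other PDA-66 libraries here, and the log2 fold change of ID3 went from 3.21 to 2.3 without it. DUSP2, a phosphatase of MAP kinases, rose by 2.75 on the log2 scale and by 2.55 without replicate 2. CDKN2C, an inhibitor of CDK4 and CDK6, had 22.1, 17.8 and 6.72 CPM in the controls and 73.6, 91.9 and 84.8 CPM after 12 h, with a log2 fold change of 2.42.

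SPC24, a kinetochore subunit, CENPW, a centromere protein, FEN1, the flap endonuclease of lagging strands, NUDT1, which clears oxidised nucleotides, and C14orf80 completed the upper end, beside the symbol DBC1, for which no position was assigned. Replicate 2 was the highest library by far in the first 5 of these. Without it, the log2 fold change went from 2.97 to 1.86 for SPC24, from 2.58 to 1.82 for CENPW, from 2.47 to 1.80 for FEN1, from 2.46 to 1.40 for NUDT1 and from 2.81 to 1.17 for C14orf80. The naming rule required a call with and without replicate 2, so that calls without it are no separate result for these genes. The genes next in line on either side were CENPM (2.42) and RIN2 (-2.52).

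**Figure D3:**
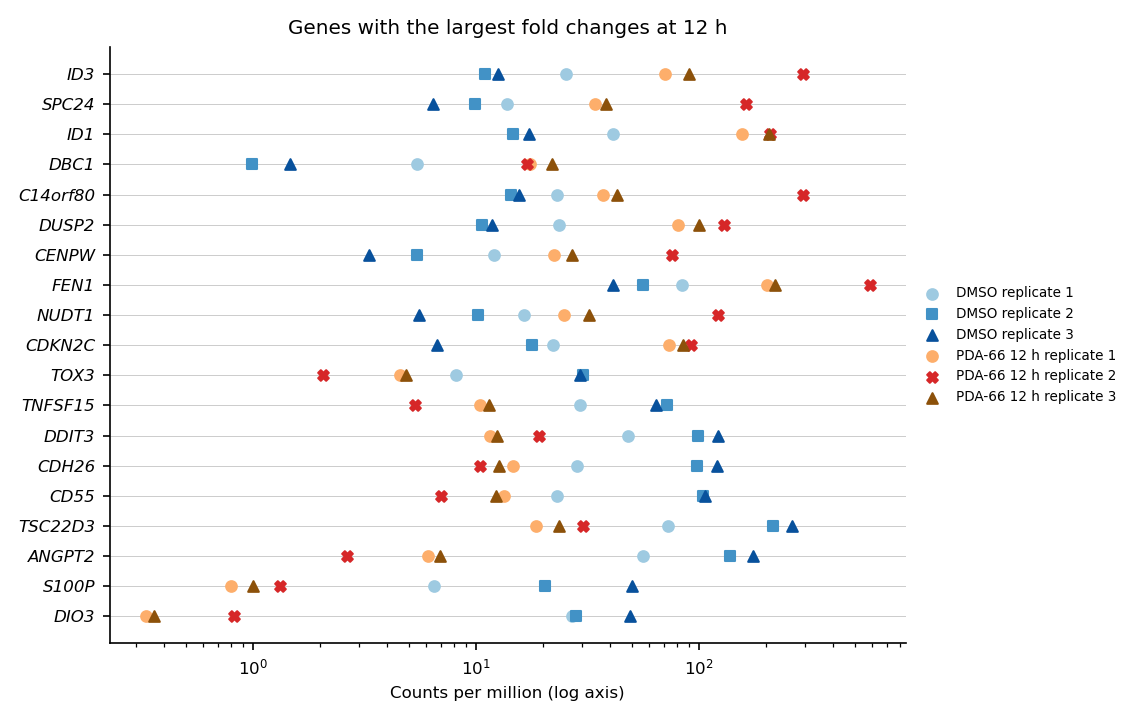
Levels in CPM (log axis), with 1 symbol per library, of the 10 highest and 9 of the 10 lowest log2 fold changes after 12 h. These genes were called with and without PDA-66 12 h replicate 2 and averaged at least 10 CPM. No overlap between the groups was also required. DIO3 lies below 1 CPM in all 3 PDA-66 libraries, and PDA-66 12 h replicate 2 lies above the other libraries for ID3, SPC24, C14orf80, FEN1 and NUDT1.

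Genes of DNA replication were higher after 12 h. Of 23 members of the origin licensing and helicase list, which load and start the replicative helicase, 18 were called higher and 0 lower, compared with 4.52% higher and 4.62% lower over all genes tested. The median log2 fold change was 1.36 against 0.03 over all genes. The licensing factor CDC6 had 54.5, 56.5 and 40.2 CPM in the controls and 123, 157 and 117 CPM after 12 h. CDC45, part of the active helicase, had 22.9, 24.9 and 16.5 CPM and then 73.0, 141 and 73.0 CPM. ORC1, the regulated subunit of the origin recognition complex, had 18.1, 17.6 and 9.57 CPM and then 47.1, 54.0 and 47.9 CPM. For all 3 genes each PDA-66 library lay above each control. Their log2 fold changes were 1.39, 2.16 and 1.72, with adjusted p-values of 0.00637, 0.00637 and 0.00726. The subunits ORC2, ORC3, ORC4 and ORC5 and the kinase subunit DBF4 were not called. With PDA-66 12 h replicate 2 left out, ORC2 (0.54), ORC3 (0.53) and DBF4 (1.21) were called higher.

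At the replication fork 16 of 33 members were called higher, among them CLSPN, an adaptor of the replication checkpoint (log2 fold change 2.07), POLA2 of the primase complex (1.55) and RFC2 of the clamp loader (1.18). Of 16 genes of deoxynucleotide synthesis, 9 were higher, including RRM2, the regulated subunit of ribonucleotide reductase. RRM2 had 124, 156 and 58.2 CPM in the controls and 538, 388 and 529 CPM after 12 h. In the Fanconi anemia and homologous recombination list 18 of 31 members were higher, with FANCD2 at 1.51 and EME1 at 1.67, and in mismatch and base excision repair 5 of 23, with NEIL3 at 1.37. No member of these lists was called lower in the fit of all libraries.

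The S phase list of the Seurat package had 28 of 43 members higher and 0 lower, and all 43 had a log2 fold change above 0. Leaving out PDA-66 12 h replicate 2 gave 41 higher members. Without DMSO replicate 2, where 299 of 13292 genes were called in all, the count fell to 15. Without DMSO replicate 3, where 246 of 13286 genes were called, it fell to 9. In origin licensing the corresponding counts were 21, 10 and 11, at the fork 26, 8 and 6, in the recombination list 24, 12 and 4, in deoxynucleotide synthesis 12, 4 and 3, and in mismatch and base excision repair 10, 1 and 0. Median levels of the S phase list per library, relative to the mean of the controls, were 0.18, 0.21 and -0.41 in the controls and 1.18, 0.83 and 1.15 after 12 h on the log2(CPM + 1) scale. The groups did not overlap.

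Regulators of entry into S phase moved with them. E2F1 had 49.5, 37.5 and 29.1 CPM in the controls and 105, 203 and 123 CPM after 12 h (log2 fold change 1.89). E2F2 (1.58) and E2F8 (1.42) were higher, and 10 other members of the E2F and RB family were not called, including RB1. With PDA-66 12 h replicate 2 left out, 7 members were higher, RB1 (0.64) among them, and 1 was lower. Over all genes, 14.1% were higher and 15.0% lower in that fit. Of 11 tested G1/S cyclins and kinases 7 were higher, with SKP2 at 1.19, CDK2 at 1.25 and CDC25A at 1.24. Of 8 CDK inhibitors 3 were higher, CDKN2C, CDKN2D (1.84) and CDKN3 (1.45). CDKN1A, the p21 inhibitor, was not called and had 689, 175 and 237 CPM in the controls and 278, 872 and 339 CPM after 12 h. Both groups overlapped widely for this gene. Without DMSO replicate 2 and without DMSO replicate 3, the G1/S list had 2 and 3 members higher, the E2F and RB family 4 and 2, and the CDK inhibitors 1 each.

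Genes of mitosis were higher as well. In RNA from a whole culture, more cells in a phase and more RNA per cell cannot be told apart. In the G2/M list of Seurat 31 of 54 members were called higher and 0 lower, all 54 had a log2 fold change above 0, and the median was 1.28. Leaving out PDA-66 12 h replicate 2 gave 53 called members. The counts were 8 without DMSO replicate 2, 13 without DMSO replicate 3 and 35 without DMSO replicate 1. Over all genes, 299, 246 and 1676 were called in these fits. GTSE1, a microtubule-binding protein of G2, had 36.7, 22.3 and 12.6 CPM in the controls and 98.6, 109 and 98.9 CPM after 12 h. CDC25C, the phosphatase that activates CDK1, had 13.2, 14.1 and 8.65 CPM and then 30.8, 33.4 and 27.7 CPM. KIF2C, a kinesin that depolymerises microtubules, had 47.5, 50.5 and 28.5 CPM and then 104, 120 and 110 CPM. In each of the 3 genes the PDA-66 libraries were alike, and the controls differed more among themselves. The log2 fold changes were 2.10, 1.36 and 1.40, with adjusted p-values of 0.00817, 0.00820 and 0.00817.

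By role, 10 of 13 genes of mitotic entry were higher, with MYBL2, which encodes B-MYB, at 2.36 and FOXM1 at 1.55. MYBL2 had 70.5, 61.9 and 37.2 CPM in the controls and 198, 442 and 229 CPM after 12 h. At centromere and kinetochore 19 of 31 members were higher, including HJURP, the chaperone of the centromeric histone, with a log2 fold change of 1.86. Of 24 mitotic kinesins and spindle factors 14 were higher, including KIF18B (2.23) and KIFC1 (2.19). In cytokinesis and the chromosomal passenger complex 9 of 11 were higher, with PRC1 at 1.31, RACGAP1 at 1.47 and INCENP at 2.15. INCENP had 310 CPM in replicate 2 against 119 and 125 CPM, and its log2 fold change was 1.56 without that library. Exons of PRC1 overlap another gene model on the same strand over 57.6% of their length. Condensin and cohesin had 8 of 15 members higher, with NCAPH at 1.76. Without DMSO replicate 2 the counts in these lists were 4 in mitotic entry, 5 at the kinetochore, 5 among kinesins, 2 in cytokinesis and 3 in condensin and cohesin, without DMSO replicate 3 they were 7, 6, 7, 4 and 3, and without PDA-66 12 h replicate 2 they were 12, 27, 23, 11 and 13.

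The spindle assembly checkpoint and anaphase list had 8 of 20 members higher and 0 lower. ESPL1, the separase that cuts cohesin, had 31.6, 22.1 and 13.7 CPM in the controls and 77.9, 134 and 86.9 CPM after 12 h (log2 fold change 2.15). ZWINT, a kinetochore protein (2.03), and UBE2C, the ubiquitin-conjugating enzyme of the anaphase-promoting complex (1.03), were also higher. The checkpoint genes MAD2L1, BUB1, BUB3 and TTK were not called. With PDA-66 12 h replicate 2 left out, MAD2L1 (1.12), BUB1 (1.40) and TTK (1.49) were called higher. There were 2 called members without DMSO replicate 2 or DMSO replicate 3, but 15 without PDA-66 12 h replicate 2.

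**Figure D4:**
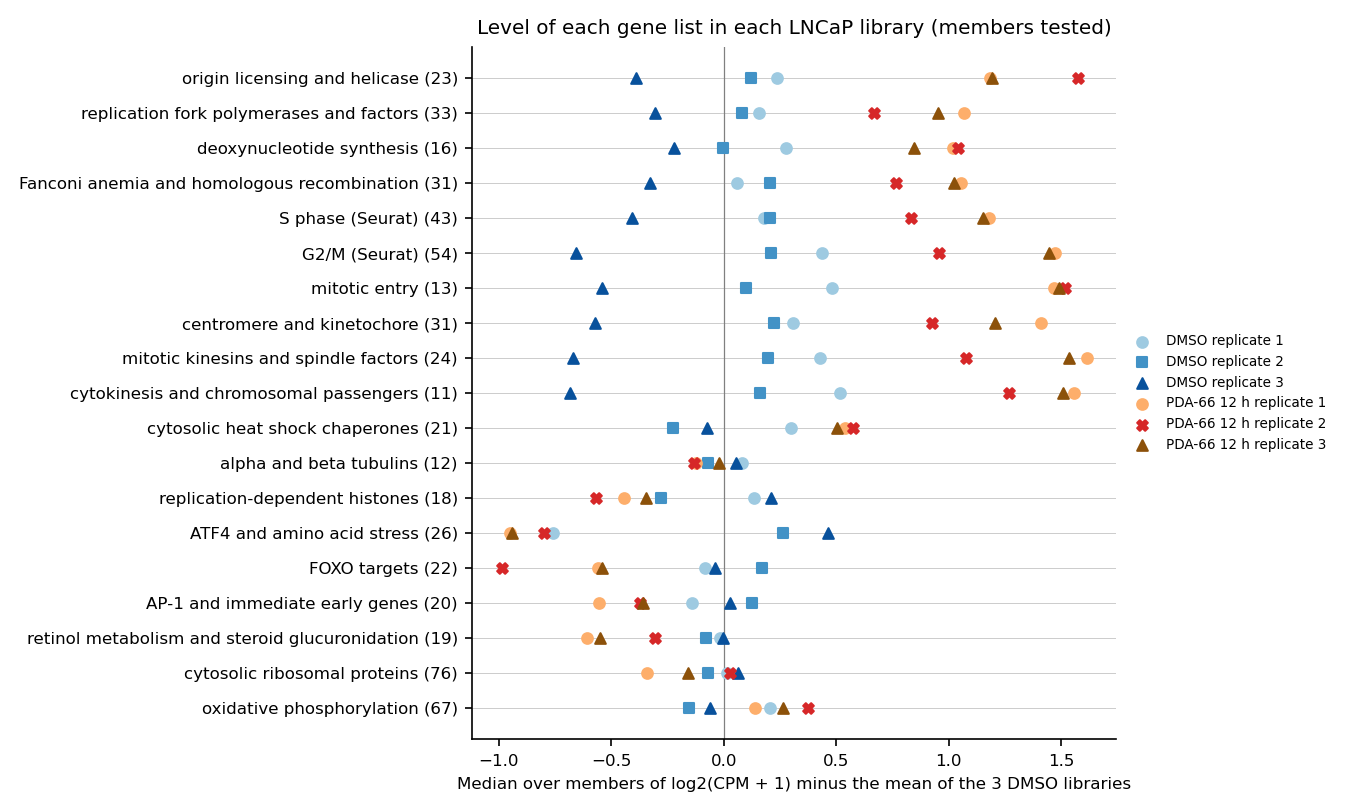
Median over the tested members of each gene list of log2(CPM + 1) minus the mean of the 3 DMSO libraries (horizontal axis), for 19 lists (vertical axis, number of members tested in brackets), with 1 symbol per library. In the replication and mitosis lists all PDA-66 libraries lie above all controls, and in the ATF4 list DMSO replicate 1 lies near the PDA-66 libraries at -0.76.

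Promoters of these genes are shown because E2F and the mitotic complex bind known short elements. RefSeq promoter windows (GRCh38.p14) from 250 bases before to 50 after the start were at hand for 10317 of the 13156 genes tested. The E2F letters searched were TTTGGCGC, TTTCGCGC, TTTCCCGC and TTTGCCGC on either strand, and the letters of the CHR (cell cycle genes homology region) were TTTGAA and TTCGAA. E2F letters stood in 10 of 20 promoters of origin licensing genes (50%) and 16 of 33 of the S phase list (48.5%), compared with 3.33% of all 27305 promoters and 5.42% of those of genes tested. CHR letters stood in 33 of 45 promoters of the G2/M list (73.3%), compared with 16.6% of all promoters and 10.9% of those of genes tested. The letters CCAAT stood in 68.9% of the G2/M, 69.7% of the S phase and 60% of the origin licensing promoters, and in 35.7% of all and 37.2% of those of genes tested. Over all called genes, CHR letters stood in 25.8% of promoters of higher and 13.3% of lower genes, and E2F letters in 11.8% and 3.99%. A match of letters is a description and not a binding site.

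The 150 bases before the start are printed for the called members with the smallest adjusted p that hold the letters there. Capitals mark E2F letters in MCM7, a helicase subunit (chr7:100101398-100101547, minus strand, 9 bases before the start), and GINS2 of the GINS complex (chr16:85688955-85689104, minus strand, 31 bases before the start). Capitals mark CHR letters in GTSE1 (chr22:46296720-46296869, plus strand, 26 bases before the start) and HJURP (chr2:233854536-233854685, minus strand, 111 bases before the start).
MCM7: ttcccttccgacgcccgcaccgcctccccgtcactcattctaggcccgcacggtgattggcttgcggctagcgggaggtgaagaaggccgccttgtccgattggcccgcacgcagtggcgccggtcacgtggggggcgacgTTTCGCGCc
GINS2: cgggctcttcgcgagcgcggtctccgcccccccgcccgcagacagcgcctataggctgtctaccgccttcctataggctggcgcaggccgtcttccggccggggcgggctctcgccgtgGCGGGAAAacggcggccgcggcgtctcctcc
GTSE1: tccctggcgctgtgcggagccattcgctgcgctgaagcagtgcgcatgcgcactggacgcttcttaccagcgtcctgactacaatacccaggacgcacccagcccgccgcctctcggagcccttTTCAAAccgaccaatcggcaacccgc
HJURP: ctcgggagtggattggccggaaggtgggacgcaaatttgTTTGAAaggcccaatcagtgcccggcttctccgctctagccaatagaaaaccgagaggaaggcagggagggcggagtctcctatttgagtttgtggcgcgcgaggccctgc
MCM7 had 168, 156 and 136 CPM in the controls and 306, 497 and 321 CPM after 12 h (log2 fold change 1.29). GINS2 had 18.6, 11.4 and 8.95 CPM and then 35.9, 52.6 and 36.2 CPM (1.67), and HJURP had 31.3, 32.2 and 13.8 CPM and then 104, 76.9 and 99.4 CPM (1.86). No PDA-66 library overlapped a control in these genes.

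Tubulin genes moved in both directions. Of 12 tested α- and β-tubulin genes 4 were lower, TUBA1A, TUBB2A, TUBB3 and TUBB4A, and 1 was higher, TUBA1B. Over all genes, 4.62% were lower and 4.52% higher. TUBA1A (chromosome 12, 49578469 to 49582863, GRCh37) had 13.8, 19.7 and 17.8 CPM in the controls and 4.12, 5.93 and 3.01 CPM after 12 h. TUBB3, whose exons overlap another gene model on the same strand over 21.3% of their length, had 24.3, 29.5 and 39.0 CPM and then 9.43, 13.3 and 11.2 CPM. TUBB4A had 4.73, 4.44 and 5.09 CPM and then 1.06, 1.40 and 0.861 CPM. For these genes all PDA-66 libraries, replicate 2 included, lay below all controls. The log2 fold changes were -1.98 ± 0.27 (SE), -1.45 ± 0.22 and -2.10 ± 0.25, with adjusted p-values of 0.00726, 0.00820 and 0.00518. Those of TUBB2A and TUBA1B were -0.83 and 0.89. Without PDA-66 12 h replicate 2, the same 4 genes were lower, and TUBB4B (0.61) joined TUBA1B as higher. In that fit 15.0% of all genes were lower and 14.1% higher. Leaving out DMSO replicate 1 gave 4 lower and 3 higher tubulin genes. Leaving out DMSO replicate 2 or 3 gave 3 lower and 0 higher, where 299 and 246 genes were called in all.

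Tubulin genes with more counts were not called lower. TUBB had 966, 718 and 610 CPM in the controls and 905, 665 and 1048 CPM after 12 h, and TUBA1C had 204, 197 and 192 CPM and then 159, 364 and 186 CPM. Both overlapped between the groups. Tubulin genes are near copies of each other, and how reads that fit several of them were counted is not stated. TUBA1A shares 10.8% of its exon bases with TUBA1C on the opposite strand. At 24 h TUBA1A had 16.5, 11.8 and 14.9 CPM, a range that overlapped with the controls. Among tubulin folding factors and microtubule-associated proteins 2 of 23 were called, TUBG1 (1.32), the γ-tubulin that nucleates microtubules, and STMN1 (1.40), which binds free tubulin dimers. This share is near the 9.14% of all genes. Leaving out PDA-66 12 h replicate 2 gave 6 higher and 1 lower, beside 14.1% and 15.0% of all genes. Leaving out DMSO replicate 1 gave 3 higher, and DMSO replicate 2 or 3 gave 1.

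Of 7 tested genes around the aryl hydrocarbon receptor (AHR), a receptor for planar aromatic ligands, 3 were higher, beside 4.52% of all genes. CYP1A1, its classic target and an oxidase of such ligands (chromosome 15, 75011883 to 75017877, GRCh37), had 0.917, 0.411 and 0.618 CPM in the controls and 7.30, 10.3 and 8.97 CPM after 12 h. The groups lay well apart, and the level was low in both. Its log2 fold change was 3.73 ± 0.29 (SE), with an adjusted p of 0.00113, and 3.61 without replicate 2. CYP1A2, its neighbour on the chromosome, had 0.353, 0 and 0.0772 CPM and then 1.59, 2.39 and 1.79 CPM (3.58 ± 0.59 SE, adjusted p 0.0103). NQO1, a quinone reductase, had 32.9, 25.1 and 19.8 CPM and then 77.5, 86.9 and 75.3 CPM (1.62). AHR itself had 2.75, 5.27 and 5.404 CPM and then 4.12, 7.16 and 4.81 CPM and was not called, and TIPARP, another target, was not called at -0.23. There were 5 higher members of 8 tested without PDA-66 12 h replicate 2 and 2 higher members without DMSO replicate 3. AHRR was below the filter, and CYP1B1 and ALDH3A1 were at 0 in all 6 libraries.

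The promoter of CYP1A1 is shown for the core letters of the element that AHR binds, GCGTG on either strand. These stood in 7 of 10 promoters of the list (70.0%) and in 36.3% of all promoters and 51.4% of those of genes tested, so that a match is common. The 150 bases before the start of CYP1A1 (chr15:74725529-74725678, GRCh38.p14, minus strand) hold them 57 bases before the start, in capitals.
CYP1A1: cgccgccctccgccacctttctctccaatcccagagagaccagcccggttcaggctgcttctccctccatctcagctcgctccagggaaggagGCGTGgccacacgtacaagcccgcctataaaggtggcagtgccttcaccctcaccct

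**Figure D5:**
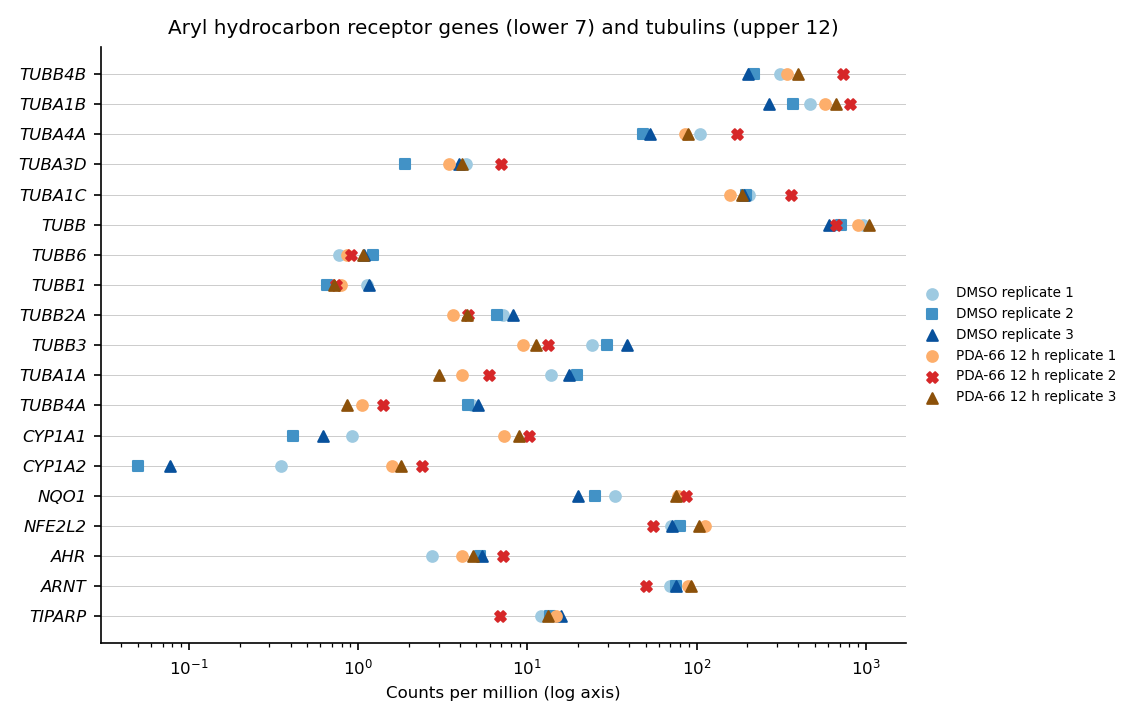
Levels in CPM (log axis) of the 7 tested genes around AHR and the 12 tested tubulin genes, with 1 symbol per library; a value of 0 is drawn at the left edge. CYP1A1, CYP1A2 and NQO1 lie higher and TUBA1A, TUBB2A, TUBB3 and TUBB4A lower in all 3 PDA-66 libraries. Levels are not scaled by gene length.

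Genes of NRF2, a factor for oxidative stress, gave no common direction, with 2 of 17 called higher (NQO1 and OSGIN1, 1.30) and 1 lower (HMOX1, heme oxygenase, -1.22), beside 4.52% and 4.62% of all genes. Leaving out PDA-66 12 h replicate 2 gave 4 higher and 3 lower members, beside 14.1% and 15.0% of all genes. Leaving out DMSO replicate 2 or 3 gave 1 and 0. Of 21 cytosolic heat shock chaperones 6 were higher and 0 lower, and all 21 had a log2 fold change above 0. HSP90AA1, the inducible HSP90, had 3056, 2267 and 2083 CPM in the controls and 5156, 6688 and 4781 CPM after 12 h (1.17). DNAJB1, a co-chaperone of HSP70, rose by 1.03 and BAG3 by 1.12 on the log2 scale. The count was 1 without DMSO replicate 2 or 3 but 12 without PDA-66 12 h replicate 2, beside 14.1% higher over all genes.

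Stress genes under ATF4, a factor for amino acid shortage and unfolded proteins, were lower or not called. Of 26 tested members 5 were lower and 0 higher, beside 4.62% and 4.52% of all genes. The median log2 fold change was -0.96. DDIT3, which encodes CHOP, had 48.3, 99.3 and 122 CPM in the controls and 11.6, 19.2 and 12.5 CPM after 12 h. ATF3 had 75.1, 165 and 176 CPM and then 38.2, 29.3 and 35.5 CPM (-2.01), and GDF15, a secreted stress cytokine, had 399, 342 and 560 CPM and then 62.7, 152 and 79.8 CPM (-2.14). No library overlapped between the groups in these genes, and DMSO replicate 1 was the lowest control for DDIT3 and ATF3. The exons of DDIT3 overlap those of MARS1 on the opposite strand over 31.6% of their length.

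DMSO replicate 1 differed from the other controls over the whole ATF4 list. Relative to the mean of the controls, the list stood at -0.76 in this library, 0.26 and 0.46 in the other controls and -0.95, -0.80 and -0.94 after 12 h. Without DMSO replicate 1, 17 members were lower, as many as without PDA-66 12 h replicate 2, and 3 were lower without DMSO replicate 2 or 3. Over all genes, 15.0% were lower without PDA-66 12 h replicate 2. In either direction, 1676 of 13330 genes were called without DMSO replicate 1, 299 of 13292 without DMSO replicate 2 and 246 of 13286 without DMSO replicate 3. ATF4 itself had 538, 842 and 940 CPM and then 361, 1006 and 382 CPM and was not called, and replicate 2 was above all controls. With that library left out, ATF4 was called lower (-1.05, adjusted p 0.0033 in edgeR). Of 21 endoplasmic reticulum chaperones and regulators 3 were lower, HERPUD1 (-1.39), DNAJB9 (-1.40) and XBP1 (-0.83), beside 4.62% of all genes. HSPA5, the chaperone BiP, was not called. Of these genes 1 was lower without DMSO replicate 2 or 3, but 6 without PDA-66 12 h replicate 2, beside 15.0% of all genes.

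In the BCL2 family, which sets the threshold for apoptosis, 1 of 16 tested members was higher and 1 lower. The higher one was BCL2L12 with a log2 fold change of 1.72. PMAIP1, which encodes the apoptosis factor NOXA, had 32.5, 48.1 and 47.6 CPM in the controls and 20.98, 24.9 and 19.1 CPM after 12 h, and fell by 0.98 on the log2 scale. The groups did not overlap. BAX and BCL2 were not called. These counts are near the 4.52% higher and 4.62% lower of all genes. With PDA-66 12 h replicate 2 left out, 1 of 17 tested members was higher and 4 lower, beside 14.1% and 15.0% of all genes. With DMSO replicate 1 left out 2 were lower, and with DMSO replicate 2 or 3 left out 0 were called.

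Of 22 FOXO targets, genes of growth arrest and protein breakdown, 10 were lower and 0 higher, with a median log2 fold change of -0.62. GADD45A, a stress gene of growth arrest, had 37.8, 34.7 and 42.2 CPM in the controls and 15.7, 23.4 and 13.8 CPM after 12 h (-1.12). FBXO32, a muscle-atrophy ubiquitin ligase, had 14.5, 14.6 and 13.7 CPM in the controls and 3.25, 5.02 and 4.23 CPM after 12 h (-1.78). CCNG2, a cyclin of quiescent cells (-1.37), and TRIB1, a pseudokinase (-1.67), were lower too. Of 20 immediate early genes 8 were lower and 0 higher. FOS had 13.7, 21.0 and 16.3 CPM and then 3.92, 6.504 and 8.03 CPM (-1.47), and KLF4 fell by 1.58 on the log2 scale. Among 10 tested feedback genes of MAP kinase, the phosphatase genes DUSP4 (-1.85) and DUSP6 (-2.28) were among 4 lower, and PHLDA1 (1.01) was 1 of 2 higher. JUN and MYC were not called. Over all genes, 4.62% were lower and 4.52% higher with all libraries. Without PDA-66 12 h replicate 2, 12 FOXO targets, 10 immediate early genes and 4 feedback genes were lower, and 2 feedback genes were higher. Over all genes, 15.0% were lower and 14.1% higher in that fit. Without DMSO replicate 2 or 3, 4 FOXO targets, 1 immediate early gene and 1 feedback gene were lower. Leaving out these controls gave 299 and 246 called genes in all.

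Of 18 replication-dependent histone genes, which package newly made DNA in S phase, 0 were higher and 7 lower, with a median log2 fold change of -0.55. HIST1H2AC had 35.8, 36.5 and 63.4 CPM in the controls and 20.9, 17.9 and 22.96 CPM after 12 h (-1.14), and HIST1H2BD fell by 0.98 on the log2 scale. HIST1H3D (-1.51) shares 96.6% of its exon bases with another gene model on the same strand. These messages mostly end without a poly(A) tail, and the libraries were poly(A)-enriched, so that the counts cover a part of them. The 7 lower histone genes stand beside 4.62% lower over all genes. Without PDA-66 12 h replicate 2, 8 histone genes were lower, beside 15.0% of all genes. There were 6 lower and 1 higher without DMSO replicate 1, 5 lower without DMSO replicate 2 and 0 lower without DMSO replicate 3. Of 76 ribosomal protein genes 4 were lower and 0 higher, with RPL10A at -0.57 and RPS12 at -0.47, a share near the 4.62% of all genes. Without PDA-66 12 h replicate 2 there were 31, beside 15.0% of all genes, 2 without DMSO replicate 1, and 0 without DMSO replicate 2 or 3.

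Some enzymes of steroids and retinol were lower. In this list 7 of 19 tested members were lower and 0 higher, beside 4.62% and 4.52% of all genes. The median log2 fold change was -0.73. UGT2B17, which conjugates androgens with glucuronic acid, had 359, 252 and 209 CPM in the controls and 74.96, 52.6 and 64.6 CPM after 12 h (-2.09 ± 0.23 SE, adjusted p 0.00490). RDH11, a retinal reductase, had 848, 981 and 970 CPM and then 394, 232 and 351 CPM (-1.52). UGT2B15 (-1.60) and UGT2B11 (-1.47) fell with UGT2B17, and members of this family are near copies whose reads may be split between them. No library overlapped for UGT2B17 and RDH11. Without DMSO replicate 2 or 3, 5 members were lower, where 299 and 246 genes were called in all. Without PDA-66 12 h replicate 2, 8 were lower and 1 higher, beside 15.0% and 14.1% of all genes.

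A few genes of prostate epithelium and steroid response are given as examples, not as a list. ACPP, prostatic acid phosphatase, had 58.3, 73.9 and 60.1 CPM in the controls and 28.9, 19.7 and 24.8 CPM after 12 h (-1.39). TMPRSS2, a membrane serine protease, had 301, 573 and 486 CPM and then 134, 212 and 129 CPM (-1.52). FKBP5, a co-chaperone of steroid receptors, rose from 146, 133 and 122 CPM to 310, 208 and 289 CPM (1.01). In all 3 genes the groups did not overlap. KLK3, which encodes prostate-specific antigen, had 68.2, 26.1 and 52.0 CPM and then 27.4, 53.6 and 23.7 CPM and was not called. KLK3 was called lower with PDA-66 12 h replicate 2 left out (-0.93, adjusted p 0.0429 in edgeR).

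Metabolic lists and some others had few called members, apart from the secretory genes. Of 24 hypoxia and glycolysis genes HK1 was higher (0.70) and VEGFA lower (-1.46), of 23 cholesterol genes EBP was higher (1.92) and TM7SF2 lower (-0.82), and of 13 fatty acid genes ACSL1 was lower (-0.71). EBP had 320 CPM in replicate 2 against 84.9 and 96.1 CPM, and its log2 fold change was 1.03 without that library. Of 67 genes of oxidative phosphorylation ATP5G1 was higher (0.86), and of 24 genes of MYC and ribosome biogenesis MXI1 (-1.11) and GNL3 (-0.67) were lower. Of 24 interferon-stimulated genes 2 were higher, OAS3 (1.84) and USP18 (1.19), and 2 lower, HERC5 (-1.94) and IFIT2 (-1.45). In autophagy and lysosome GLA was higher (1.24) and MAP1LC3B lower (-1.24) among 30 genes. RNF43 (0.92) was the called member of 9 Wnt feedback genes. Of 7 tested secretory genes 4 were lower, and IGFBP3 was higher (1.10). Among the lower ones were GDF15, which is also in the ATF4 list, and MMP10 (-2.82). MMP10 had low counts, with at most 3.37 CPM in the controls and at most 0.332 CPM after 12 h. The secretory counts stayed at 1 higher and 4 lower without PDA-66 12 h replicate 2. Over all genes, 4.52% were higher and 4.62% lower with all libraries. Leaving out PDA-66 12 h replicate 2 gave 1 higher and 5 lower in hypoxia and glycolysis, 5 and 1 in cholesterol, 2 and 1 in fatty acids, 9 and 0 in oxidative phosphorylation, 3 and 3 in MYC and ribosome biogenesis, 3 and 4 among interferon-stimulated genes, and 4 and 7 in autophagy and lysosome, beside 14.1% higher and 15.0% lower over all genes. Leaving out DMSO replicate 2 or 3 gave at most 1 called member in each direction in all of these lists.

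Of the markers of other cell types VWF was called. With PDA-66 12 h replicate 2 left out, ENO2 (-0.57) and PDGFRB (-1.67) were called lower too, and with DMSO replicate 2 or 3 left out VWF was not. Of the PC-3 markers, VIM had between 9.61 and 15.0 CPM over the 6 libraries, ANXA1 at most 4.28 CPM, and the other 6 were below the filter. ENO2 and SYP of the neuroendocrine list, KRT14 of the basal list and CD68 of leukocytes were not called. VWF, an endothelial gene, was lower (-1.87), with PECAM1, CDH5 and KDR at or near 0. COL1A1 of fibroblasts had 125 CPM in PDA-66 12 h replicate 2 and between 18.5 and 27.9 CPM in the other 5 libraries, while COL1A2 was at most 0.0823 CPM. Summed over the 6 fibroblast markers, levels were between 19.9 and 30.1 CPM in these 5 libraries and 128 CPM in replicate 2. The 12 luminal markers summed to between 5660 and 6105 CPM in the controls and between 4761 and 5623 CPM after 12 h, and TMPRSS2 was the called member. Of these, 5 were called lower with PDA-66 12 h replicate 2 left out, including FOXA1 (-0.76) and FOLH1 (-0.27). Whether these levels bear on the comparison was not tested.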

How the data were processed

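RNA of LNCaP cells was analysed in 9 samples, grouped by the labels. Per the methods and the submitters' processing notes, the authors mapped reads to hg19 with STAR 2.3.1s, counted them on RefSeq genes and used edgeR 3.14.0. The authors deposited whole-number read counts per gene, without normalization. The use of strand and the counting of reads that fit several genes are not given in the sources used here. Tables of the other cell lines were not used here.

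Counts were tested with R 4.3.3 and edgeR 4.0.16 (filterByExpr, TMM, glmQLFit and glmQLFTest) on all 9 samples, with the contrast 12 h minus DMSO. Adjusted p-values are Benjamini-Hochberg values over all genes tested, and those under 0.05 were called, and log2 fold changes are from this fit. CPM were computed with TMM-scaled library sizes and are not scaled by gene length. Positions and GC content (22144 of 23708 symbols) came from the GENCODE v44lift37 annotation, and promoters from RefSeq. The script was tested on simulated data. limma 3.58.1 and DESeq2 1.42.0 served alternatives, and Python 3.11.15 was used for figures. No 2 libraries agreed within sampling noise.

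Named were the 10 highest and 10 lowest fold changes among genes called with and without PDA-66 12 h replicate 2 that averaged 10 CPM or more in the 6 samples and whose groups did not overlap, the 3 called members of each of 49 lists with the smallest adjusted p (or the 2 members with the highest mean CPM where none was called), DIO3, and the gene each list is named for. Where a list gives more than 3 called members, further ones are examples chosen after their values were seen. The lists, apart from S phase and G2/M (Seurat), were written from general knowledge. The members and lists were chosen with earlier results of these data known. No list was tested as a set, and list counts are to be read against the shares called over all genes. Alternatives were other size factors, filters, tests and thresholds, a fit of only the 6 samples, a replicate block, a removal of the GC content and length trend by a spline with 4 degrees of freedom, and each library left out. Deviations from the group means correlated at -0.228, -0.42 and -0.186 between same-numbered DMSO and 12 h libraries. The highest value was 0.452, between DMSO replicate 2 and PDA-66 12 h replicate 1. Deviations within a group of 3 depend on each other, and PDA-66 12 h replicate 2 carries a GC trend. These values therefore cannot decide whether replicate numbers pair the samples. Some genes and lists are not reported here.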

Additional observations from a re-analysis of the deposited data

Results flagged for a closer look

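TUBA1A was singled out because its change differed between the 12 h and the 24 h of PDA-66. It stood at 4.12, 5.93 and 3.01 CPM after 12 h and at 16.5, 11.8 and 14.9 CPM after 24 h, against 13.8, 19.7 and 17.8 CPM in the shared DMSO controls. The log2 fold change was -1.98 at 12 h and -0.25 at 24 h, a difference of 1.73 (24 h minus 12 h). In edgeR's quasi-likelihood test of this difference the adjusted p was 0.0494 without PDA-66 12 h replicate 2 and 0.535 with all 9 libraries, so that the call rests on leaving out that library. TUBA1A was the only gene called for this difference without replicate 2. With all libraries 0 genes were called, and 837 had an unadjusted p under 0.05.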

How the results depend on the processing

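The count of called genes, 1202, was 1205 with DESeq2 size factors, 1239 without a filter and 1176 with a filter of 1 CPM. It was 969 by edgeR's exact test, which used only the 6 samples compared. It moved to 2264 by the DESeq2 Wald test, 2094 by edgeR's likelihood ratio test and 5468 by limma voom with sample weights. Removal of the GC content and length trend gave 3635 genes, and a log2 fold change of at least 1 gave 791. The quasi-likelihood test on only the 6 samples compared gave 3, and an adjusted p under 0.001 gave 1. With the replicate block the count was 405, and whether replicate numbers pair the samples is not known. Leaving out 1 library at a time gave between 246 and 3881 genes. Higher genes made up 49.4% of the calls, and between 44.3% and 60.0% with 1 library left out. They made up 33.3% in the quasi-likelihood fit of only the 6 samples and 0% at 0.001. The cause was not tested. No called gene among those named by the rule changed sign. Uncalled genes near 0 or decided by 1 library (AHR, ANXA1, CD68, COL1A1, KRT14 and SYP) did in some settings: COL1A1 went from 1.18 to -0.35 without PDA-66 12 h replicate 2, and ANXA1 (-0.03 to 0.13) and CD68 (0.14 to -0.10) changed sign with the GC content trend removed. The share of higher genes lay on either side of 50%, with 54.2% by the DESeq2 Wald test. DIO3 stayed called in each setting, with a log2 fold change between -5.78 and -6.62.

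The 3 controls differed among themselves, the controls are labelled 24 h, and the spread rests on 3 libraries per group. Genes whose reads fit several gene models, and genes of low counts such as CYP1A2, are the least certain. In the quasi-likelihood fit of only the 6 samples none of the gene lists kept more than 1 called member.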
